A study of Rattus norvegicus with 6 samples.

Results

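The genes with symbols that start with Kcn encode potassium channel subunits and some of their partners, and their RNA was compared between whole kidneys of 2 rat strains. Members were the probe sets whose only gene symbol in the platform annotation starts with Kcn. There were 126 such probe sets, for 75 genes, of 31099 in the table. Each probe set is a group of short array probes that reads 1 transcript or a few. The rats were male. Of these, 3 were Dahl salt sensitive rats, labelled Dahl(S), a strain that becomes hypertensive on a high-salt diet, and 3 were Lewis rats. Both groups received food with 8% NaCl from 5 weeks of age for 8 weeks, and each kidney RNA was read on 1 array. No rats on a low-salt diet were analysed here, so what the strains inherit and how they respond to salt cannot be told apart. Whole kidney holds many cell types, and fewer cells of a type and less RNA per cell cannot be told apart either.

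Potassium channels are pores in cell membranes that let potassium ions pass and set the membrane voltage. In the kidney, apical channels such as ROMK return potassium to the tubule lumen and drive its secretion, while basolateral channels recycle the potassium that the sodium pump brings in and so keep sodium reabsorption going. Inward rectifiers (Kcnj) and two-pore channels (Kcnk) carry much of the resting conductance of tubule cells. Voltage-gated subunits (Kcna to Kcnv) open on depolarisation, calcium- or sodium-activated channels (Kcnma, Kcnn, Kcnt) respond to those ions inside the cell, and auxiliary subunits (Kcnab, Kcne, Kcnip, Kcnmb) modify other channels and form no pore of their own.

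The starts of 4 members that differed between the strains are shown here, 3 that were lower in Dahl(S) and the only tested one that was higher. Each window runs from 250 bases before to 50 bases from the start of the gene in RefSeq, on build GRCr8, 5′ to 3′ along the gene. Capitals mark a match, on either strand, to 1 of 4 short motifs: GTTAAT, a half-site of the kidney and liver factor HNF1, AGAACA, a half-site of steroid receptors, TATAAA, the TATA box, and CACGTG, an E-box. Windows of Kcnj15 (chr11:48070700-48070999, plus strand), Kcnj16 (chr10:96517074-96517373, plus strand) and Kcnk5 (chr15:4171375-4171674, plus strand) stand first. The more upstream of 2 windows of Kcns3 (chr6:39584056-39584355, minus strand) follows.
Kcnj15: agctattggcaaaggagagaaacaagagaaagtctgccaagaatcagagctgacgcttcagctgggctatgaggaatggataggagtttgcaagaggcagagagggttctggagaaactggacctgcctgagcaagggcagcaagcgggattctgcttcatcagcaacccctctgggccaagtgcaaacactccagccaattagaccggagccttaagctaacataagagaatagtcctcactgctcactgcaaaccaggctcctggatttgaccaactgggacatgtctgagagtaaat
Kcnj16: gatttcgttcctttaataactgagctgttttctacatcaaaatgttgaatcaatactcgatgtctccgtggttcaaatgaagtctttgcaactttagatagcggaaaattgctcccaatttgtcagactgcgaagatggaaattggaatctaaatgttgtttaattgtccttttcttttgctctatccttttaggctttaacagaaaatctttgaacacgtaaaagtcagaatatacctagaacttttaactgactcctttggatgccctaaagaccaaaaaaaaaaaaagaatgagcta
Kcnk5: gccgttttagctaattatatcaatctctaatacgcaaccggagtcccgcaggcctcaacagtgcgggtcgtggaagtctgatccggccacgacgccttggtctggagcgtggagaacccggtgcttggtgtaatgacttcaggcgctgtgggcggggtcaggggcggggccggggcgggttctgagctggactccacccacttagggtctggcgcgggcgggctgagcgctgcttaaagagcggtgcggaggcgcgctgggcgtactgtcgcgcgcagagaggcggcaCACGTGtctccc
Kcns3: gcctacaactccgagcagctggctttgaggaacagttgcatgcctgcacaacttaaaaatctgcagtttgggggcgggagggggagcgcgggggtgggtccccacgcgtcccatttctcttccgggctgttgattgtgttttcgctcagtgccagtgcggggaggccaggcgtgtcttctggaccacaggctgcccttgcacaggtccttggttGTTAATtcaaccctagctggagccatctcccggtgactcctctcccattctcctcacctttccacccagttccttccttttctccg

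These windows differed in base composition, with 50.3% G and C in Kcnj15, 34.0% in Kcnj16, 64.7% in Kcnk5 and 58.3% in Kcns3. Kcnk5 held 1 match, CACGTG at 39 bases after the start, and Kcns3 held 1, GTTAAT at 36 bases before it (position -36). Kcnj15 and Kcnj16 held none of the 4 motifs in these windows, and neither did the second window of Kcns3, which is not shown (74.3% G and C). Any starts of these genes outside the RefSeq windows were not searched. Of the 15 Kcn genes bright enough to test, 10 had a window in the table, with 13 windows. GTTAAT was in 2 of the 13, against 7.45% of 33469 windows of all genes. AGAACA was in 4 against 20.7%, TATAAA in 1 against 14.2% and CACGTG in 2 against 6.42%. A match is a description of the letters and shows no binding.

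Most members gave little signal in whole kidney. Signals are on a linear scale and were normalized so that each array had the same distribution. A probe set was tested if it lay above the median of all normalized values on 3 or more of the 6 arrays. This held for 18 of the 126 members, from 15 genes. The other 108 comprised 103 that lay above the median on no array and 5 that did so on 1 array. The highest deposited signal among the 108 was 83.2, and 31 members stayed under 16 on all 6 arrays. Measured against the median of the deposited signals, 18 members also passed, 17 of them in both.

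By class, 7 of 26 inward rectifier probe sets passed, 2 of 16 two-pore probe sets, 4 of 49 voltage-gated ones, 2 of 9 calcium- or sodium-activated ones and 3 of 26 auxiliary ones. Of 31 Kcn genes named for a known place in kidney or its vessels, 29 had a probe set with that symbol and 8 had 1 that passed. Among the 21 without one were Kcnj10, whose product pairs with that of Kcnj16 on the basolateral side of distal tubule cells (deposited signals 31.1 to 57.9), and Kcnma1, the pore of the large-conductance calcium-activated channel (0.6 to 49 over 3 probe sets). Others were Kcnj11, a pore subunit of ATP-sensitive channels (14.7 to 56.6 over 3 probe sets), Kcnmb4 (26.5 to 63.4), a partner of Kcnma1, and Kcna1 (1 to 2.9), a voltage-gated subunit. Little RNA and a probe set that reads its transcript poorly cannot be told apart in these signals.

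**Figure D1:**
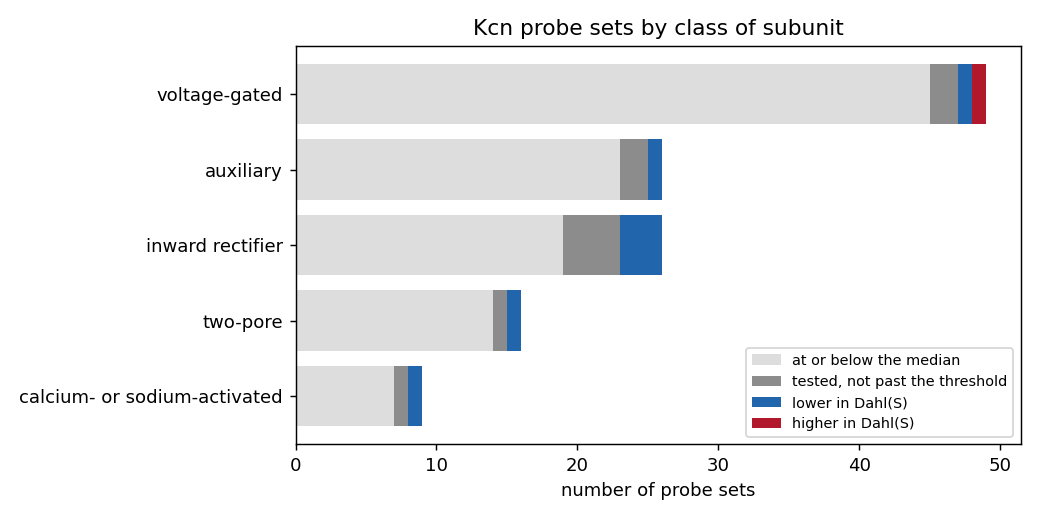
Number of Kcn probe sets in each class of subunit (horizontal axis), split into those not above the median on 3 or more arrays, those tested but not past the threshold, and those lower or higher in Dahl(S) (3 rats a strain). Most of each bar is the part that was not tested. The inward rectifiers hold 3 of the 7 lower probe sets and 7 of the 18 tested ones. Without normalization between arrays Kcnab1 was not tested and no other was called lower.

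Of the 18 tested members, 7 were lower in Dahl(S), 1 was higher and 10 did not pass an adjusted p of 0.05 (limma, adjusted over 15797 probe sets); in the deposited signals without normalization 17 of these 18 were tested, 0 of them were called lower and 1, Kcns3, higher. There Kcnab1 was not tested, and Kcne1 entered and was called higher. Over all probe sets tested, 7.75% were called lower and 8.5% higher, 16.2% in all, beside 38.9%, 5.56% and 44.4% of the tested members. At any p, 15 of the 18 were lower in Dahl(S), beside 49.8% of everything tested. The median log2 difference, Dahl(S) minus Lewis, was -0.22 over the tested members and 0 over all tested probe sets. For 9 of the 18 (50%) the values of the strains did not overlap, beside 34.4% of all. These are descriptions of the members bright enough to test. When all 126 were fitted with no filter, 4 were lower and 2 higher, 4.76% of them, beside 3.05% lower, 3.5% higher and 6.55% in all among 31042 probe sets, and the median difference of the 126 was -0.05. Only Kcnab1 entered through 3 arrays of a single strain, Lewis. Kcnc4 and Kcns3 each entered through 3 arrays of the strain where they were high and 1 of the other.

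**Figure D2:**
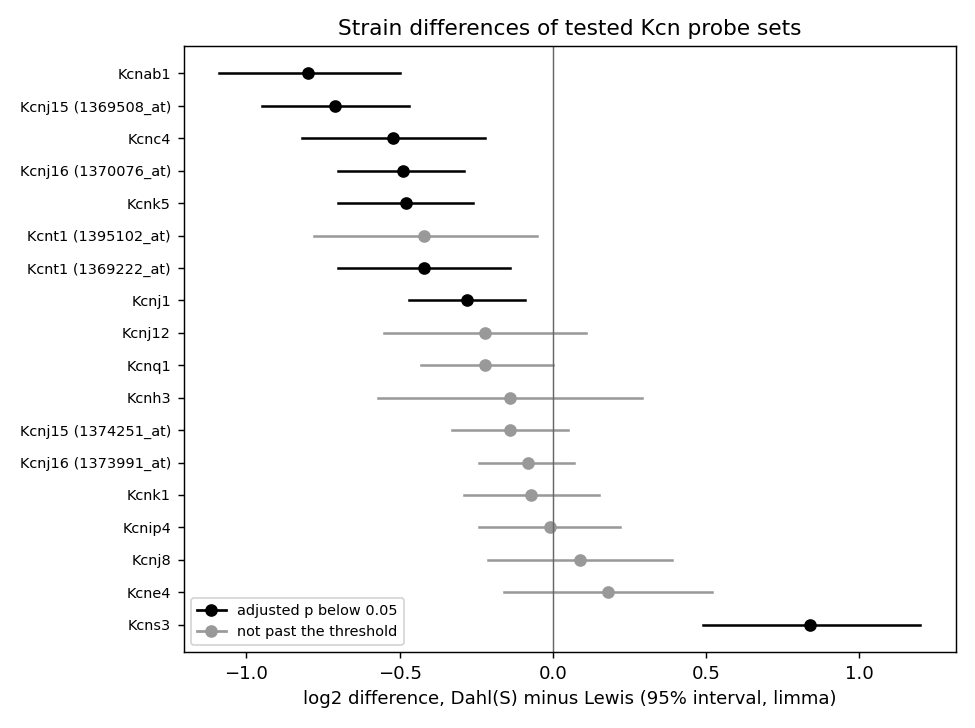
Log2 difference, Dahl(S) minus Lewis, of each tested Kcn probe set (horizontal axis, point) with its 95% interval from limma (line), 3 arrays a strain; black marks an adjusted p below 0.05. The 7 black points left of 0 run from -0.80 for Kcnab1 to -0.28 for Kcnj1, Kcns3 stands alone at 0.84, and without normalization the sign of Kcnj1 turned.

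Among the inward rectifiers, Kcnj15 and Kcnj16 were lower in Dahl(S) by 1 of their 2 probe sets each. Kcnj15 encodes a basolateral channel of the proximal tubule. Its probe set 1369508_at gave normalized signals of 308, 319 and 364 in Lewis rats 1, 2 and 3. In Dahl(S) rats 1, 2 and 3 it gave 193, 174 and 222; values further on are in the same order. All 3 Lewis values lay above all 3 Dahl(S) values, and the Dahl(S) mean was 1.64-fold lower (log2 difference -0.71, SE 0.11, adjusted p = 8.3e-04). Folds are taken on the log2(signal + 16) scale and so come out too small for dim genes. The second probe set, 1374251_at, gave 3247, 3051 and 3905 in Lewis and 2906, 2976 and 3329 in Dahl(S). These ranges overlapped and the difference did not pass (-0.14, 95% interval -0.33 to 0.05, adjusted p = 0.31). With scaling to a common median it read -0.29 (adjusted p = 0.076), and the first probe set -0.69; the deposited signals gave 0.15 for the second and -0.28 for the first.

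Kcnj16 encodes a subunit that pairs with other inward rectifiers and makes them sensitive to pH. By probe set 1370076_at it gave 1419, 1836 and 1779 in Lewis and 1259, 1165 and 1119 in Dahl(S). The groups did not overlap, and the Dahl(S) mean was 1.41-fold lower (-0.49, SE 0.10, adjusted p = 0.0038). By probe set 1373991_at it gave 3019, 2560 and 2641 in Lewis and 2693, 2470 and 2587 in Dahl(S), which overlapped (-0.08, 95% interval -0.24 to 0.07, adjusted p = 0.48). With scaling to a common median it read -0.19 (adjusted p = 0.20), and the first -0.54; the deposited signals gave 0.25 for the second and -0.11 for the first.

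The 2 tested probe sets of a gene can be set against each other within an array. For Kcnj15 the log2 value of 1369508_at minus that of 1374251_at was -3.33, -3.19 and -3.37 in Lewis and -3.81, -3.98 and -3.81 in Dahl(S). The strain means differed by -0.57, with no overlap (exact permutation p = 0.1, two-sided, the smallest that 3 against 3 allow). After median scaling this contrast was -0.40, and the deposited signals gave -0.43, also without overlap. For Kcnj16 the values were -1.08, -0.48 and -0.57 in Lewis and -1.09, -1.07 and -1.2 in Dahl(S). This difference of -0.41 came with Lewis array 1 close to the Dahl(S) arrays (exact permutation p = 0.2, two-sided), and was -0.36 under either of the other scalings. For Kcnt1, described further on, the difference was 0 (exact permutation p = 1, two-sided). Which of the probe sets follows the RNA level was not tested. Sequence differences between the strains under the probes were not masked.

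**Figure D3:**
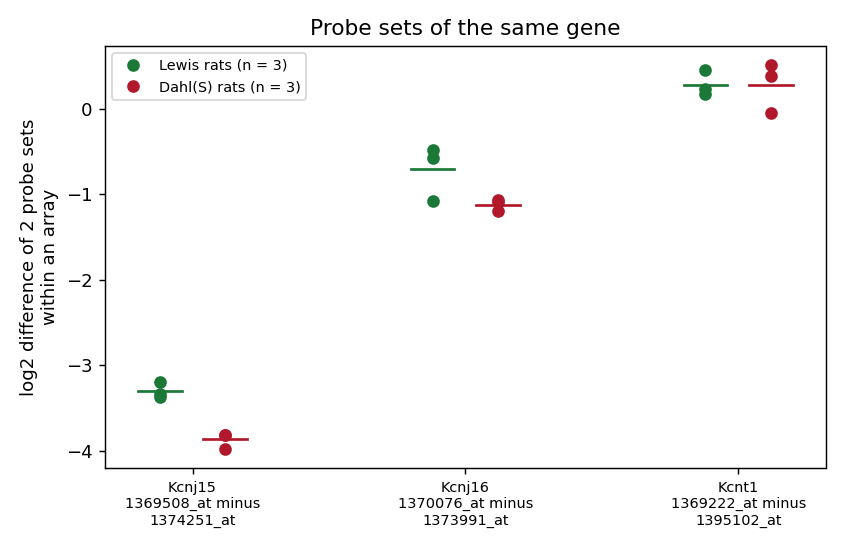
Log2 difference between 2 probe sets of the same gene within each array (vertical axis) for Kcnj15, Kcnj16 and Kcnt1, with 1 point per rat and a line at the strain mean. The Dahl(S) points of Kcnj15 (-3.98 to -3.81) lie below all Lewis points (-3.37 to -3.19), while those of Kcnt1 span the Lewis points.

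Kcnj1 encodes ROMK, the apical channel of the thick ascending limb and the collecting duct. It gave 1970, 1930 and 2057 in Lewis and 1580, 1458 and 1879 in Dahl(S). The groups did not overlap, though Dahl(S) array 3 came near the Lewis values. The Dahl(S) mean was 1.22-fold lower (-0.28, SE 0.09, adjusted p = 0.044), and the difference was 0.09 in the deposited signals without normalization, where the median of all tested probe sets was 0.41. The call was lost without Lewis array 2 or 3 or Dahl(S) array 1 or 2 (-0.30 to -0.20, adjusted p 0.078 to 0.19), with no filter (adjusted p = 0.11) and with no variance trend (0.12).

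The other tested inward rectifiers did not pass. Kcnj12, a strong rectifier known from muscle, differed by -0.22 (95% interval -0.55 to 0.11, adjusted p = 0.37). Kcnj8, a pore subunit of the ATP-sensitive channel of vessels, gave 82.3, 74.4 and 59.8 in Lewis and 80.3, 76.0 and 75.7 in Dahl(S). Its ranges overlapped (0.09, 95% interval -0.21 to 0.39, adjusted p = 0.70).

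Each of the lower inward rectifier genes has another Kcnj gene as its next protein-coding neighbour in RefSeq, and none of these neighbours was bright enough to test. Kcnj2, beside Kcnj16, gave deposited signals of 10.4 to 19.8. Kcnj6, beside Kcnj15, gave 1.9 to 46.7 over 4 probe sets, and Kcnj5, beside Kcnj1, gave 6.1 to 79.9 over 2.

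Of the 2 tested two-pore channels, Kcnk5 was lower and Kcnk1 did not pass. Kcnk5 encodes a channel opened by alkaline pH, known from the basolateral side of the proximal tubule. It gave 238, 251 and 218 in Lewis and 165, 174 and 154 in Dahl(S). The groups were well apart, and the Dahl(S) mean was 1.39-fold lower (-0.48, SE 0.10, adjusted p = 0.0060), a call that held with any single array left out (-0.53 to -0.44). Kcnk1, a weak inward rectifier of this family, gave 178, 164 and 160 in Lewis and 150, 162 and 166 in Dahl(S), which overlapped (-0.07, 95% interval -0.29 to 0.15, adjusted p = 0.71).

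Among the voltage-gated subunits, Kcns3 was higher in Dahl(S) and Kcnc4 lower. Kcns3 encodes a subunit that is silent alone and changes the gating of channels it joins. It gave 36.7, 48.7 and 64.7 in Lewis and 99.2, 93.0 and 110 in Dahl(S). Every Dahl(S) value exceeded every Lewis value, 1.79-fold at the mean (0.84, SE 0.16, adjusted p = 0.0039). The difference ran from 0.69 to 1.00 with any 1 array left out and passed each time. Kcns3 lay above the median on all 3 Dahl(S) arrays but on only 1 Lewis array. Its entry into the test thus leaned on the strain where it was high, and leaving an array out adds no support. The difference was 0.54 with a pseudocount of 64, since the Lewis signals were low, and the gene was not tested where all 6 arrays had to exceed the median.

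Kcnc4, a fast channel subunit known from neurons and muscle, gave 86.8, 95 and 84.1 in Lewis and 56.9, 48.4 and 66.9 in Dahl(S). The groups did not overlap (-0.52, SE 0.14, adjusted p = 0.023), but the call was lost without Lewis array 2 or Dahl(S) array 1 or 2 (adjusted p 0.076 to 0.10) and with no filter (0.071). Kcnc4 lay above the median on all 3 Lewis arrays but on only 1 Dahl(S) array, so its entry too leaned on the strain where it was high. The other Kcnc4 probe set, 1391369_at, was not bright enough to test and read -0.04 in the limma fit with no filter (adjusted p = 0.96). Kcnq1, the pore that pairs with Kcne1 in heart, inner ear and proximal tubule, gave 227, 254 and 267 in Lewis and 203, 212 and 221 in Dahl(S). Its ranges did not overlap either, yet the difference did not pass (-0.22, 95% interval -0.43 to 0.00, adjusted p = 0.16). Kcnh3, a neuronal channel subunit, varied widely within both strains (-0.14, 95% interval -0.57 to 0.29, adjusted p = 0.68).

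**Figure D4:**
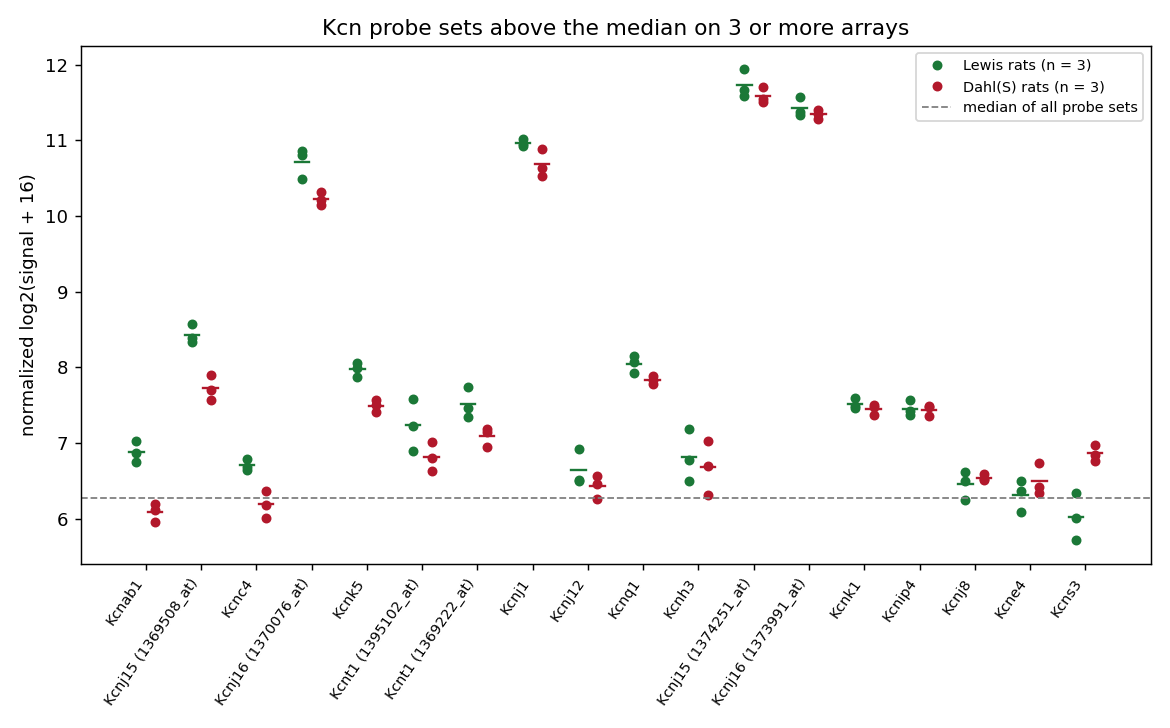
Normalized log2(signal + 16) of each tested Kcn probe set on each array (vertical axis), with 1 point per rat, a line at the strain mean and a dashed line at the median of all probe sets; probe sets are ordered by their strain difference and their heights are not comparable with each other. Lewis points lie above Dahl(S) points without overlap at the left, from Kcnab1 to Kcnk5, and Kcns3 at the right is the reverse; without normalization Kcnab1 was not tested and the others at the left were not called lower.

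Kcnt1 encodes a sodium-activated channel known mainly from neurons. Its probe set 1369222_at gave 198, 160 and 146 in Lewis and 129, 126 and 108 in Dahl(S), without overlap (-0.42, SE 0.13, adjusted p = 0.042). Its probe set 1395102_at gave a difference of the same size with overlapping ranges (-0.42, SE 0.17, adjusted p = 0.11). The first call was lost without any 1 array other than Lewis array 3 (-0.46 to -0.30, adjusted p 0.077 to 0.18) and with no filter (0.10). A further Kcnt1 probe set, 1379147_at, was not bright enough to test. In the limma fit with no filter it read -0.04 with overlapping ranges (adjusted p = 0.95).

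Kcnab1 encodes a cytoplasmic beta subunit of voltage-gated channels. It gave 91.5, 101 and 115 in Lewis and 53.2, 45.9 and 57.2 in Dahl(S). It had the largest fall among the tested members, 1.74-fold (-0.80, SE 0.14, adjusted p = 0.0017). With any single array left out it read -0.86 to -0.72 and passed. Because Kcnab1 was tested only through its 3 Lewis arrays, its entry into the test depended on the strain difference itself. Leaving an array out adds no support here, since the tested probe sets stayed those chosen on all 6 arrays. The other Kcnab1 probe set, 1369847_at, was not bright enough to test. In the limma fit with no filter that probe set read -0.20 with overlapping ranges and did not pass (adjusted p = 0.57). The other tested auxiliary genes did not pass. Kcne4, a single-pass subunit that modifies voltage-gated channels, differed by 0.18 (95% interval -0.16 to 0.52, adjusted p = 0.47). Kcnip4, which encodes a calcium-binding partner of such channels, gave 156, 149 and 174 in Lewis and 162, 148 and 164 in Dahl(S) (-0.01, 95% interval -0.24 to 0.22, adjusted p = 0.95). A second Kcnip4 probe set, 1370595_a_at, was not bright enough to test. In the limma fit with no filter it read -0.47 without overlap and did not pass (adjusted p = 0.14).

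Just outside the test lay 5 probe sets above the median on 1 array. For Kcne1, the partner of Kcnq1, normalized signals were 12.8, 26.9 and 22.3 in Lewis and 71.3, 52.4 and 60.0 in Dahl(S). The groups did not overlap, and in the fit with no filter the Dahl(S) mean of Kcne1 was 2.12-fold higher (1.09, SE 0.20, adjusted p = 0.012), a size that depends on the pseudocount because the Lewis signals lay near it. Kcnj10 gave 62.3, 51.5 and 49.7 in Lewis and 38.7, 23.5 and 32.2 in Dahl(S), without overlap, and did not pass in that fit (-0.58, SE 0.18, adjusted p = 0.097). The others were probe sets of Kcnip1 (0.56), Kcnj3 (-0.22) and Kcnj5 (0.23), with adjusted p from 0.29 to 0.52. Just inside it were Kcnab1, on 3 Lewis arrays, Kcnc4, on 3 Lewis and 1 Dahl(S), and Kcns3, on 1 Lewis and 3 Dahl(S).

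**Figure D5:**
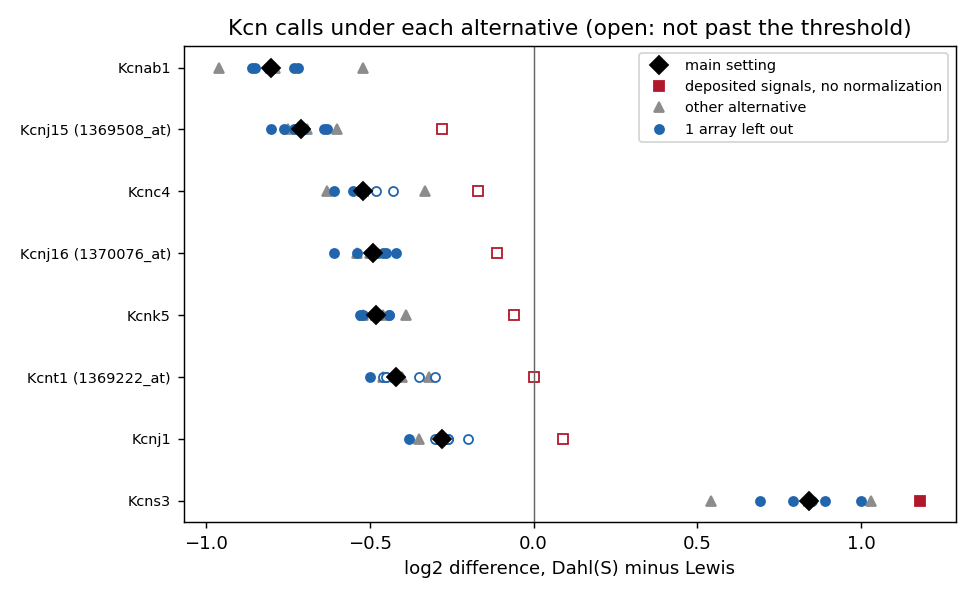
Log2 difference, Dahl(S) minus Lewis, of the 8 Kcn probe sets past the threshold (horizontal axis) in the main setting (diamond) and under each alternative; open symbols did not pass. Kcnj15, Kcnj16 and Kcnk5 kept filled symbols in all but the deposited signals without normalization, where Kcnj1 crossed 0 to 0.09, and Kcnj1, Kcnt1 and Kcnc4 lost the threshold with several single arrays left out.

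Other genes of renal potassium handling, in a list of 44 transporters, regulators and channel partners, mostly did not pass the threshold. Of 29 tested genes, 1 was higher in Dahl(S) and 5 were lower, with a median of -0.08, beside 9.04% of 9540 genes higher and 7.62% lower; in the deposited signals 1 was higher and 0 lower. Casr, the calcium-sensing receptor that restrains salt transport in the thick ascending limb, gave 433, 445 and 441 in Lewis and 594, 543 and 597 in Dahl(S) (0.38, SE 0.08, adjusted p = 0.0063). Fxyd2, a regulator of the sodium pump, was lower in Dahl(S) (-0.20, SE 0.06, adjusted p = 0.041). Hcn2, a pacemaker channel that passes sodium and potassium, was lower by more (-0.69, SE 0.19, adjusted p = 0.024). Fxyd4 (-0.43), Sgk1 (-0.70) and the sodium channel subunit Scnn1a (-0.52) completed the lower genes. Of the subunits that assemble with members, the sulfonylurea receptor genes Abcc8 (-0.23, adjusted p = 0.31) and Abcc9 (0.18, adjusted p = 0.25) did not pass.

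Markers of the cells that carry these channels moved as follows; their part in the results was not tested, and no marker was at 0 on all arrays. Of 8 proximal tubule markers, all tested, 3 were lower in Dahl(S) and 0 higher. The lower ones were Slc22a6 (-0.69), Slc22a8 (-0.29) and Aqp1 (-0.17), and the others ran from -0.16 for Slc5a2 to 0.13 for Cubn. The summed normalized signal of the 8 was 38146 to 39298 in Lewis and 34872 to 35276 in Dahl(S). This stood beside the lower Kcnk5, and beside Kcnj15, lower by 1 of its 2 probe sets. Of the other channel genes placed in the proximal tubule above, Kcnq1 did not pass (-0.22). Its partner Kcne1, too dim for the test, was higher in the fit with no filter (1.09). Of 6 thick ascending limb markers 1 was higher and 0 lower (21396 to 22817 in Lewis, 21639 to 21761 in Dahl(S)), and of 7 principal cell markers of the collecting duct 2 were lower and 0 higher (9423 to 9946 against 8063 to 8488), beside the lower Kcnj1. The distal convoluted tubule had 3 of 6 markers tested and 0 past the threshold (6205 to 7092 against 5709 to 5983). Intercalated cells had 5 of 7 tested, 1 higher and 0 lower (3046 to 3369 against 3624 to 3727). The higher one was Atp6v1g3, with 1606, 1542 and 1607 in Lewis and 2120, 2177 and 2111 in Dahl(S), which weighs on the sum. The other tested ones ran from -0.16 for Slc26a4 to 0.14 for Foxi1. Smooth muscle and pericytes had 5 of 7 tested and 1 higher (883 to 1152 against 1258 to 1308). The higher one was Tagln, with 454, 266 and 300 in Lewis and 656, 548 and 620 in Dahl(S), which weighs on the sum. Acta2 (0.01), Myh11 (0.04), Pdgfrb (0.00) and Rgs5 (0.27) did not pass. Of 8 macrophage and leukocyte markers 6 were tested and all 6 were higher (927 to 1079 against 1584 to 1642). Endothelium had 5 of 6 tested with 2 lower (2215 to 2329 against 1719 to 1915), and podocytes 4 of 5 with 2 lower (1818 to 1875 against 1411 to 1451). The lower podocyte markers were Podxl (-0.79) and Wt1 (-0.36), while Nphs1 (-0.10) and Synpo (-0.04) did not pass. Podxl, with 823, 764 and 808 in Lewis and 450, 446 and 465 in Dahl(S), weighs on the podocyte sum. Only 1 of 6 neuron markers was bright enough to test (62 to 77 against 67 to 91).

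The arrays differed in brightness before normalization. Deposited median signals were 38.9, 69.7 and 53.7 in the Lewis rats and 70.4, 81.2 and 63.4 in the Dahl(S) rats. Lewis array 1 was the dimmest, and without it 1 member was higher and 6 were lower.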

How the data were processed

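RNA of 3 Dahl(S) and 3 Lewis kidneys was read on 1 array per rat. The authors deposited 1 linear signal intensity per probe set and array, made with GeneChip Operating Software version 1.4 per the design text of the labels; no source used here gives the scaling target or the detection calls. Groups and replicate numbers came from the sample titles, and the labels give 1 array a rat.

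From the 31099 probe sets, 57 array controls were left out. The intensities were turned into log2(signal + 16), where 16 is close to the lower quartile of all signals (16.2), and quantile-normalized, which hides any shift that most genes share. Probe sets above the median of all normalized values on at least 3 arrays, 15797 in number, were fitted with limma 3.58.1 in R 4.3.3 (lmFit, eBayes with a variance trend, two-sided, Benjamini-Hochberg adjustment, threshold 0.05), and the Kcn rows were then read off. Adjusted p-values and SE are limma's, with n = 3 a strain; the number of arrays limits the precision. Normalized signals are the normalized values turned back to the linear scale. Gene symbols came from the platform annotation; all 126 Kcn probe sets matched a RefSeq gene of the same symbol by gene identifier, and promoter windows are RefSeq's on GRCr8. Members of lists outside Kcn were read from the brightest tested probe set of each gene.

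The members and lists were chosen with earlier results of these data known. Every Kcn probe set past the threshold is named, beside Kcn genes with a known place in kidney and the remaining tested members; members below the filter are named as examples. Steps were tested on simulated data. Alternatives were other scalings, pseudocounts of 1 and 64, other filters, no variance trend, a replicate block and each array left out.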

Additional observations from a re-analysis of the deposited data

How the results depend on the processing

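The count of lower Kcn probe sets was 7 and that of higher ones 1 with scaling to a common median, with pseudocounts of 1 and 64 and with the replicate block, and no variance trend gave 6 lower and 1 higher. Deposited signals without normalization gave 0 lower and 2 higher, Kcns3 and Kcne1, with Kcnab1 not tested; there the median of all 16135 tested probe sets was 0.41, 6.59% of calls were lower against 47.7%, and Kcnj1 read 0.09, on the other side of 0. No filter gave 4 lower and 2 higher, with 1085 higher and 948 lower among all probe sets. A filter on deposited signals gave 6 lower and 2 higher, and the stricter filter, above the median on all 6 arrays, 5 lower and 0 higher, since Kcns3, Kcnab1 and Kcnc4 were not tested there. With 1 array left out and the tested probe sets kept as chosen on all 6 arrays, 4 to 7 were lower and 1 higher. All tested probe sets then gave 1488 to 2786 calls against 2567. The count was 4 without Lewis array 2 or Dahl(S) array 1 or 2.

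Potassium handling genes were 5 lower and 1 higher. They were 0 lower in the deposited signals, 2 lower and 2 higher with no filter, 3 lower with no variance trend and 2 higher with the filter on deposited signals. With 1 array left out, 2 to 5 were lower and 0 to 2 higher. The replicate numbers of the titles did not pair the rats: same-numbered rats correlated by -0.05, -0.10 and 0.11 in their deviations from strain means, across probe sets, and the block gave 2494 calls against 2567. It changed no count of Kcn or potassium handling calls. The causes of these changes were not tested, other than where fewer probe sets or arrays entered. The contrasts of 2 probe sets within an array were recomputed under the other scalings, a choice made after seeing the data: that of Kcnj15 moved from -0.57 to -0.40 and -0.43, and that of Kcnj16 from -0.41 to -0.36.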
